A study of Homo sapiens with 4 samples.

Results

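The transcripts of 10 genes of oxidant defence and iron storage, HMOX1, NQO1, TXNRD1, TXN, GCLM, PRDX1, SOD1, GPX4, FTH1 and FTL, were measured in HGC-27 cells treated with the peptide GLUP and in control cells. They were chosen by name, as known antioxidant enzymes and the ferritin chains, with earlier results of these data known, so their counts beside those of all genes are descriptions. All 10 were found by symbol among the 62443 genes of the table. HGC-27 is a human gastric cancer cell line. GLUP is a cyclised synthetic peptide that the study designed to tie molecules of the transcription factor TEAD4 together, and the comparison asks which transcripts differ once cells have received it. RNA was sequenced in 4 libraries, 2 of untreated control cells (Con) and 2 of cells given 10 μg/ml GLUP (GLUP). The study's text gives the treatment time as 12 h in one place and 48 h in another. Its methods name the peptide's storage buffer as the control, where the sample labels record no treatment. All libraries come from this 1 cell line without any genetic change named in the labels.

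Oxidants are removed by enzymes that work in relays. SOD1 turns superoxide into hydrogen peroxide, peroxiredoxins such as PRDX1 reduce the peroxide, and they are recharged by thioredoxin (TXN), which TXNRD1 recharges in turn with NADPH. GCLM supports the first step of glutathione synthesis, and GPX4 uses glutathione to reduce lipid peroxides in membranes, the step that guards cells against ferroptosis, an iron-dependent death. NQO1 reduces quinones, HMOX1 opens heme and frees its iron, and ferritin, a hollow shell of heavy (FTH1) and light (FTL) chains, stores iron. Many of these genes are known targets of the transcription factor NRF2 (gene NFE2L2), which binds antioxidant response elements and is held in check by KEAP1. Ferritin is also controlled after transcription, through an iron responsive element in the first part of its mRNA.

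Both kinds of element were searched as short runs of letters in the RefSeq sequences of build GRCh38.p14. These held windows from 250 bases before to 50 bases after the start for 6 of the 10 genes, 9 windows in all. HMOX1, PRDX1, SOD1 and FTH1 had no window. The antioxidant response element was searched as TGACNNNGC and TGAGNNNGC on both strands, forms that cannot overlap at the same position of the same strand. TXNRD1, GCLM and NQO1 held at least 1 of them, in 4 of the 9 windows, against 29.1% of the 35116 windows. TXN, GPX4 and FTL held neither. The stretches with the matches are shown so that the letters of the 3 genes can be compared. Capitals mark the match, which lies on the opposite strand in GCLM, NQO1 and the second TXNRD1 start, and all are written along the gene.
GCLM, chr1:93909431-93909490, minus strand, positions -60 to -1: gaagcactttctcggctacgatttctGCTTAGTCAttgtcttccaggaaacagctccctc
TXNRD1 first start, chr12:104215649-104215708, plus strand, positions -130 to -71: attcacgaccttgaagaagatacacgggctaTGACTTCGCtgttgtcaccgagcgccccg
TXNRD1 second start, chr12:104286902-104286961, plus strand, positions -130 to -71: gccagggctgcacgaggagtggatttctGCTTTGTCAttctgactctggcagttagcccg
NQO1, chr16:69726646-69726705, minus strand, positions -145 to -86: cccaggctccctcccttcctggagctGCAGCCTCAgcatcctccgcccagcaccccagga
GCLM and TXNRD1 hold the TGACNNNGC form here and NQO1 the TGAGNNNGC form, found in 13.3% and 18.3% of all windows. GCLM and the first TXNRD1 start had a further match across the start itself (positions -8 to 1), and the second TXNRD1 start one at -198 to -190. The loop of the iron responsive element was searched as CAGTGN in the first 50 transcribed bases and was found in FTL alone of the 6 genes, against 6.36% of all windows. FTL is shown around that loop, which is in capitals.
FTL, chr19:48965329-48965358, plus strand, positions 21 to 50: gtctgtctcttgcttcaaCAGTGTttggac
A match is a run of letters and not a tested binding site.

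The libraries themselves set limits on what follows. The table is in FPKM, fragments scaled to transcript length and to library size, and the number of fragments behind a value is unknown. Con replicate 2 stood apart. It correlated with Con replicate 1 at a Pearson r of 0.933 across 7588 genes, whereas r was 0.952 and 0.957 between Con replicate 1 and the GLUP libraries, and 0.986 between these. Of the epithelial markers, EPCAM (0 to 0.124 FPKM) and CDH1 (0 to 0.0799 FPKM) were near 0, while the keratins KRT8, KRT18 and KRT19 ran from 0.764 to 1.49 FPKM in control cells and from 1.32 to 2.25 FPKM with GLUP, each higher in both GLUP libraries. VIM stood at 293 to 387 FPKM. The 5 epithelial markers together summed to 2.97 and 3.70 FPKM in control cells and 5.87 and 5.18 FPKM with GLUP. The 4 immune markers summed to at most 0.289 FPKM. In bulk RNA, fewer cells of a type and less RNA per cell cannot be told apart. All fold changes below are log2 differences of FPKM + 1, GLUP minus Con, from limma over the 7588 genes whose mean reached 1 FPKM. SE stands for the standard error of this difference. The median of all these genes was -0.36.

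The levels of the 10 genes spanned from ferritin, among the most abundant messages of the cell, to GCLM, close to the limit of the test. By mean FPKM over the 4 libraries the order was FTH1 (8933 FPKM), FTL (6742), TXN (3405), PRDX1 (852), NQO1 (433), SOD1 (388), GPX4 (143), TXNRD1 (22.4), HMOX1 (8.68) and GCLM (1.78). FTH1 ranked 18 and FTL 26 among the 7588 genes, and GCLM ranked 5828. Neighbours in this order did not all stand apart from each other. FTH1 lay above FTL in every library, but Con replicate 2 held less of both than of TXN. NQO1 stood below SOD1 in both control libraries and above it in both GLUP libraries. TXN, which codes for the small disulfide reductase itself, exceeded its reductase TXNRD1 by 198 and 96.7 times in control cells and by 184 and 273 times with GLUP.

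**Figure D1:**
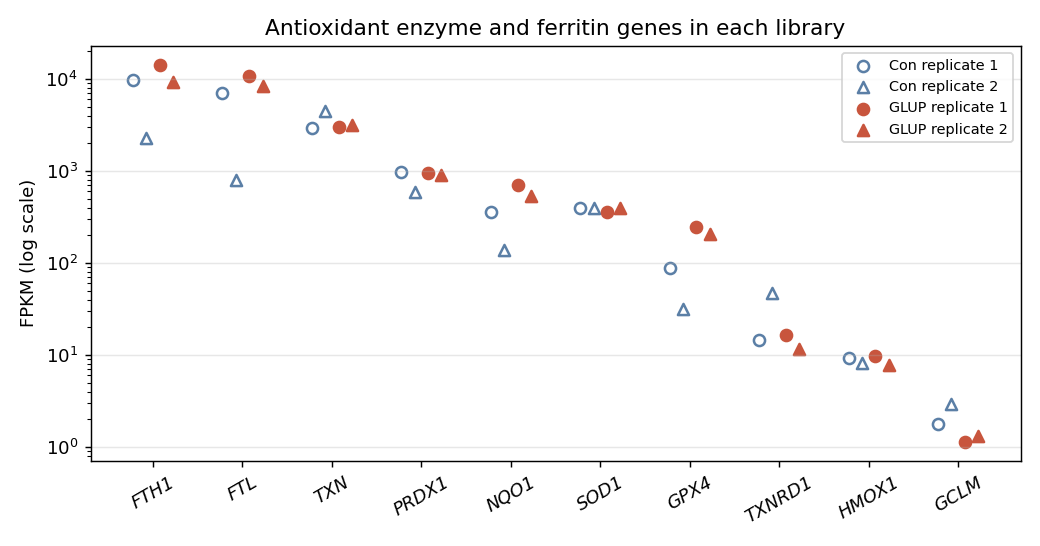
Level of each gene in each library, in FPKM on a log scale, ordered by the mean over the 4 libraries. Open blue symbols are control libraries and filled red symbols GLUP libraries. Con replicate 2 (open triangles) lies far below the other libraries for FTH1 and FTL, and above them for TXN, TXNRD1 and GCLM, while SOD1 lies between 361 and 399 FPKM everywhere.

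No gene of the 10 passed the adjusted threshold for a difference between GLUP and control cells. With limma and Benjamini-Hochberg adjustment over the 7588 genes, 0 of 10 had an adjusted p under 0.05 with a fold change over 2, against 0.0264% of all genes tested (2 genes). The adjusted p ranged from 0.101 for GPX4 to 0.995 for HMOX1. Before adjustment, p was under 0.05 for 2 of the 10 genes, GPX4 and NQO1, against 31.7% of all genes (6.37% higher and 25.4% lower). Both also differed over 2-fold, a pair of limits that 19.2% of all genes passed, and both stood higher (4.67% of all genes, with 14.5% lower). Regardless of p, 4 of 10 differed over 2-fold, against 23.1% of all genes, and all 4 (GPX4, FTL, NQO1 and FTH1) stood higher, against 6.83% higher and 16.3% lower over all genes. Of the 10 genes, 6 had a log2 fold change above 0, against 33.3% of all genes, and 4 below 0, against 66.7%. Their median was 0.14, which is 0.50 above that of all genes. Each GLUP library exceeded each control for GPX4, NQO1 and FTL (17.5% of all genes did) and lay below each control for GCLM and SOD1 (49.7% did). The groups overlapped for the other 5. With 2 libraries against 2, an exact permutation test cannot give a two-sided p below 0.333, so none was made. The study's methods name at least 2 biological replicates for the RNA, without further detail. The labels do not say whether libraries of equal groups came from separate cultures, so the p-values measure the spread between these libraries alone.

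The calls depended on which control was used. The gap between the control libraries was over 2-fold for 5 of the 10 genes, FTL, FTH1, TXNRD1, GPX4 and NQO1, against 19.1% of all genes tested. Con replicate 2 was the lower library for 4 of them (12% of all genes) and the higher for TXNRD1 (7.1%). Between the GLUP libraries it was over 2-fold for 0 of 10, against 1.63%. Without Con replicate 1, limma called 5 of the 10 genes, against 35.7% of all genes, and without Con replicate 2 it called 1, GPX4, against 13.4%. In these fits the lone control is assumed to vary as the GLUP libraries do.

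**Figure D2:**
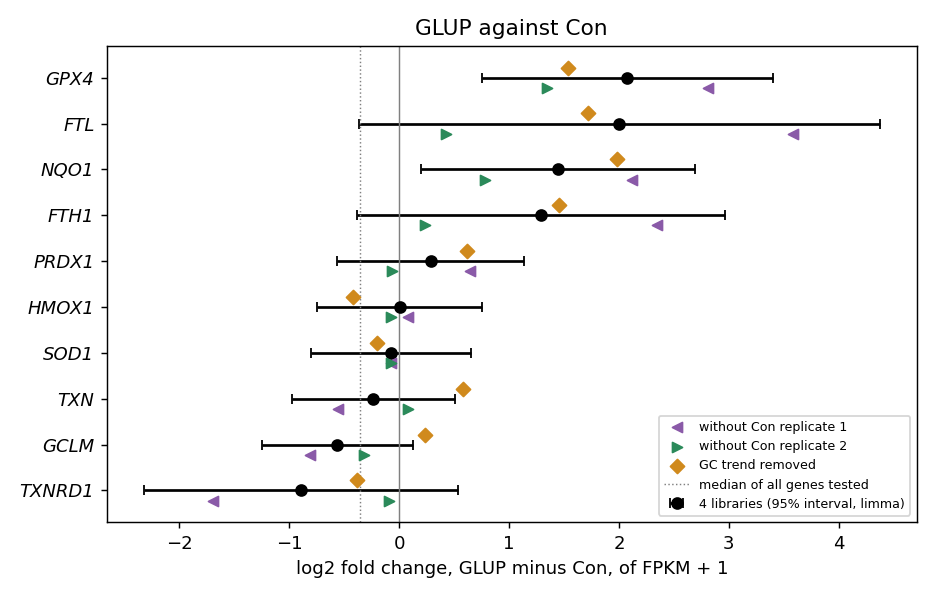
Log2 fold change of each gene, GLUP minus Con, with the 95% interval of limma over the 4 libraries (black), without Con replicate 1 (purple), without Con replicate 2 (green) and with the GC trend removed (orange). The dotted line is the median of all genes tested, -0.36. The GPX4 estimate stays above 1 in all 4 versions, FTL runs from 0.43 to 3.58, and SOD1 stays near 0.

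GPX4 had the highest log2 fold change of the 10. GPX4, the selenoenzyme that reduces lipid hydroperoxides, lies on chromosome 19 of GRCh37 from 1103981 to 1106790. It stood at 88.4 and 31.4 FPKM in control cells and at 246 and 207 FPKM with GLUP. Both GLUP libraries were well above both controls, and their mean was 2.56 times Con replicate 1 and 7.22 times Con replicate 2. The log2 fold change was 2.08 (SE 0.54, adjusted p = 0.101 from limma), higher than that of 99.4% of the genes tested. It was 2.81 without Con replicate 1 (adjusted p = 0.0024 from limma) and 1.34 without Con replicate 2 (adjusted p = 0.0250 from limma).

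NQO1, the quinone reductase, lies on chromosome 16 from 69740899 to 69760571. It stood at 357 and 140.0 FPKM in control cells and at 701 and 534 FPKM with GLUP. The groups did not overlap, and the GLUP mean was 1.73 times Con replicate 1 and 4.41 times Con replicate 2. NQO1 differed by a log2 fold change of 1.45 (SE 0.51 and limma adjusted p = 0.128). It was 0.78 without Con replicate 2 (adjusted p = 0.0693 from limma) and 2.12 without Con replicate 1 (adjusted p = 0.0033 from limma). Set against SOD1 within each library, a ratio that scaling a whole library cannot move, NQO1 was at 0.896 and 0.353 of SOD1 in control cells and at 1.94 and 1.35 with GLUP. GPX4 was at 0.222 and 0.0791 of SOD1 in control cells and at 0.682 and 0.524 with GLUP. SOD1 itself differed little (log2 fold change -0.07), so these ratios largely restate the values of NQO1 and GPX4. They depend on the gene chosen as reference. Among genes that every cell uses, GAPDH had a log2 fold change of 2.14, above both, and ACTB also exceeded NQO1. PPIA, EEF1A1 and TBP lay below both, at 1.31, 0.47 and -0.94. A rise against SOD1 is thus not a rise against every such gene.

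Both ferritin chains were lowest in Con replicate 2. FTL, the light chain, lies on chromosome 19 from 49468566 to 49470136. Control cells held 7059 and 792 FPKM of it and GLUP cells 10765 and 8351 FPKM. Con replicate 1 was 8.92 times Con replicate 2, a wider gap than that between Con replicate 1 and the GLUP mean, which was 1.35-fold. FTL differed by a log2 fold change of 2.00 (SE 0.96 and adjusted p = 0.203 from limma). It was 0.43 without Con replicate 2 (adjusted p = 0.244 from limma) and 3.58 without Con replicate 1 (adjusted p = 0.0023 from limma).

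FTH1, the heavy chain that oxidises iron for storage, lies on chromosome 11 from 61727190 to 61735106. It stood at 9814 and 2278 FPKM in control cells and at 14261 and 9378 FPKM with GLUP. Con replicate 1 lay between the GLUP libraries, so the groups overlapped. FTH1 differed by a log2 fold change of 1.29 (SE 0.68 and adjusted p = 0.232 from limma), which became 0.24 without Con replicate 2 (adjusted p = 0.585 from limma) and 2.34 without Con replicate 1 (adjusted p = 0.0045 from limma). Both chains together took up 1.85% and 0.333% of the summed FPKM in control cells and 2.67% and 1.87% with GLUP. The ratio of FTH1 to FTL was 1.39 and 2.88 in control cells and 1.32 and 1.12 with GLUP, so Con replicate 2 was poorer in the light chain than in the heavy chain and the other 3 libraries were alike. GAPDH, outside the pathway, was also lowest in Con replicate 2, as were ACTB, PPIA and EEF1A1, further genes that every cell uses. TBP, another such gene, was not. Neither were other abundant genes such as MYL6 and TMSB10 (log2 differences of Con replicate 2 minus Con replicate 1 of 0.17 and 0.25). GAPDH stood at 3318 and 569 FPKM in control cells and at 6762 and 5405 FPKM with GLUP. ACTB stood at 524 and 323 FPKM against 1686 and 929 FPKM, and PPIA at 2115 and 1271 FPKM against 4415 and 3765 FPKM. EEF1A1 was at 810 and 455 FPKM against 1077 and 658 FPKM, and TBP at 6.34 and 3.95 FPKM against 1.90 and 2.42 FPKM. The part of such library differences in the ferritin values was not tested. GAPDH, ACTB and PPIA also lay above both controls in both GLUP libraries, as GPX4, NQO1, FTL and 17.5% of all genes tested did. EEF1A1 overlapped between the groups, and TBP lay below both controls.

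Reads of FTH1 can be shared with copies and with a neighbour. The table lists 25 processed pseudogenes of FTH1, 8 of them at 0 in every library, and together they held 145 and 50.1 FPKM in control cells and 228 and 286 FPKM with GLUP, between 1.48% and 3.05% of the parent. FTL had 16, with a sum between 0.0539% and 0.170% of the parent. Added to their parents, they left the log2 fold change at 1.30 for FTH1 and 2.00 for FTL. BEST1, a chloride channel gene that overlaps FTH1 on the opposite strand, stood at 167 and 56.9 FPKM in control cells and at 0.354 and 296 FPKM with GLUP. The sources do not say if fragments were assigned by strand, so reads of BEST1 and FTH1 cannot be told apart, and FTH1 is uncertain to that extent.

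The thioredoxin relay was mixed. TXN lies on chromosome 9 from 113006090 to 113018787. Control cells held 2913 and 4535 FPKM of it and GLUP cells 3035 and 3136 FPKM. Con replicate 2 was the high library, and the other 3 lay close together. The log2 fold change was -0.24 (SE 0.30, adjusted p = 0.590 from limma), 0.083 without Con replicate 2 and 0.11 with each library centred on its median. TXNRD1 lies on chromosome 12 from 104609557 to 104744085. Control cells held 14.7 and 46.9 FPKM of it and GLUP cells 16.5 and 11.5 FPKM. Again Con replicate 2 was high, and Con replicate 1 lay between the GLUP libraries. TXNRD1 differed by a log2 fold change of -0.89 (SE 0.58 and adjusted p = 0.308 from limma), -0.090 without Con replicate 2 and -1.70 without Con replicate 1 (adjusted p = 0.0067 from limma). RPL18AP3, a ribosomal protein pseudogene inside TXNRD1 on the same strand, stood at 767 and 228 FPKM in control cells and at 1342 and 1352 FPKM with GLUP, a course opposite to that of TXNRD1. How reads were divided between them is not stated.

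PRDX1, the abundant cytosolic peroxiredoxin, lies on chromosome 1 from 45976586 to 46008404. It stood at 968 and 592 FPKM in control cells and at 951 and 896 FPKM with GLUP. Only Con replicate 2 was low, and Con replicate 1 was the highest library. The log2 fold change was 0.29 (SE 0.34, adjusted p = 0.573 from limma), -0.069 without Con replicate 2 and 0.64 without Con replicate 1 (adjusted p = 0.0337 from limma, under a 2-fold change).

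GCLM, the modifier subunit of the enzyme that makes the glutathione precursor, lies on chromosome 1 from 94350755 to 94375012. It stood at 1.77 and 2.90 FPKM in control cells and at 1.14 and 1.31 FPKM with GLUP. Both GLUP libraries were below both controls. GCLM differed by -0.56 (SE 0.28 and adjusted p = 0.212 from limma), which the added 1 understates at such a level, and by -0.84 with 0.1 added instead. It was -0.32 without Con replicate 2 (adjusted p = 0.303 from limma) and -0.81 without Con replicate 1 (adjusted p = 0.0279 from limma).

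HMOX1 and SOD1 had the log2 fold changes nearest to 0 of the 10. HMOX1, on chromosome 22 from 35776354 to 35790207, is strongly inducible by heme and oxidants in many cells. It stood at 9.18 and 8.12 FPKM in control cells and at 9.68 and 7.74 FPKM with GLUP. The controls lay between the GLUP libraries, and the log2 fold change was 0.0035 with a 95% interval from -0.75 to 0.75 (adjusted p = 0.995 from limma). A change of up to 0.75 in either direction is thus within what these libraries allow. SOD1 lies on chromosome 21 from 33031979 to 33041244. Control cells held 399 and 396 FPKM of it and GLUP cells 361 and 394 FPKM. Its GLUP libraries lay just below its controls, by a log2 fold change of -0.07 with an interval from -0.80 to 0.65 (adjusted p = 0.871 from limma), which turned to 0.27 with each library centred on its median.

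Fold changes over all genes moved with base composition, and its part in the values of the 10 genes was looked at by rank and by removing the trend. Across the 7570 tested genes with a known GC content, the Spearman rho between GC content of the longest transcript and the log2 fold change was 0.58, and that with the difference of Con replicate 2 minus Con replicate 1 was -0.42. These are across genes, which are not independent replicates and share the same 4 libraries. GPX4 has a GC content of 62.5%, FTL of 56.0% and HMOX1 of 58.5%, all within the GC-richest quintile of the genes, whose median log2 fold change was 0.44. TXN and GCLM, with 36.8% and 37.3%, belong to the poorest quintile, where the median was -0.78. Within its own quintile, GPX4 was higher than 97.4% of the genes, FTL than 97.0%, NQO1 than 99.3% and FTH1 than 95.05%. HMOX1 was higher than 26.7% of its quintile, whereas TXN was higher than 86.3% and GCLM than 67.8% of theirs. With the trend along GC content removed from each library, NQO1 had a log2 fold change of 1.98, FTL of 1.72, GPX4 of 1.53 and FTH1 of 1.45. GCLM and TXN moved above 0, to 0.23 and 0.58, and HMOX1 to -0.42. In that fit 0 of 10 genes had an adjusted p under 0.05 from limma, and 2 of 10, GPX4 and NQO1, passed the unadjusted p with a fold change over 2, against 9.25% of all genes.

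**Figure D3:**
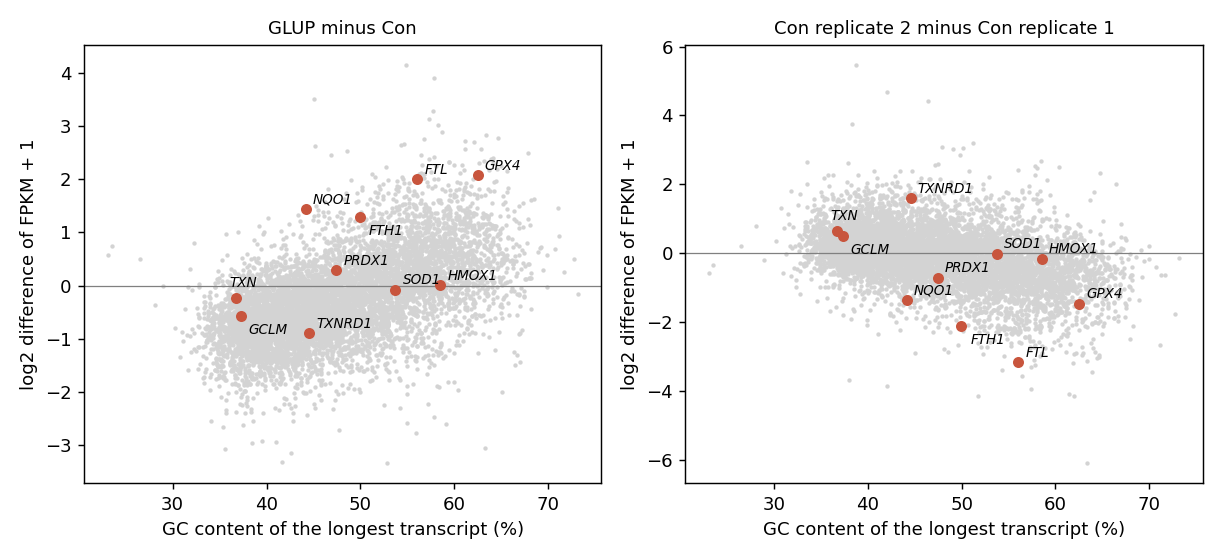
GC content of the longest transcript (%) against the log2 difference of FPKM + 1, for GLUP minus Con (left) and Con replicate 2 minus Con replicate 1 (right). Grey points are the tested genes with a known GC content and red points the 10 genes. GPX4, FTL, NQO1 and FTH1 lie at the upper edge of the cloud on the left, and FTL and FTH1 at its lower edge on the right.

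The gene closest to each of the 10, PRDX1 left out, in its course over the 4 libraries was found by the Euclidean distance between log2(FPKM + 1) values centred on their mean. With 4 libraries many genes lie close by. The closest to GPX4 was TIMM17B (distance 0.087), the closest to FTL was UQCRC1 (0.13), and the closest to FTH1 was ILK (0.19). The added 1 narrows the course of genes at low FPKM, such as ILK at 6.05 and 0.716 FPKM in control cells, so fold differences in FPKM can be less alike. IFRD2 was closest to NQO1 (0.043), ZNF510 to TXNRD1 (0.11) and RPL37A to TXN (0.037). BBS9 was closest to GCLM (0.041), STAU1 to HMOX1 (0.041) and ZDHHC16 to SOD1 (0.036). UQCRC1 shows the FTL course, at 170 and 20.6 FPKM in control cells and 267 and 219 FPKM with GLUP.

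Of 116 further genes of these pathways in 8 lists, 115 were matched and 81 tested. With p under 0.05 before adjustment and over 2-fold apart, 2 of the 81 stood higher (2.47%, against 4.67% of all genes) and 12 stood lower (14.8%, against 14.5%). Of the 81, 0 passed the adjusted threshold in limma. The shares lay near those of all genes or below them. The counts of higher and lower genes in each list below stand against 33.3% higher and 66.7% lower over all genes tested. SOD2 was not analysed here.

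The regulators of NRF2 had 7 tested genes, 2 higher and 5 lower, with a median log2 fold change of -0.35. NFE2L2, which codes for NRF2 itself, stood at 5.83 and 12.4 FPKM in control cells and at 3.04 and 2.52 FPKM with GLUP, a log2 fold change of -1.35 (adjusted p = 0.110 from limma) that was -0.86 without Con replicate 2. KEAP1, the adaptor that marks NRF2 for breakdown, stood at 9.13 and 3.81 FPKM in control cells and at 15.6 and 11.8 FPKM with GLUP (log2 fold change 1.06, adjusted p = 0.163 from limma, 0.53 without Con replicate 2). The groups did not overlap for either gene, NFE2L2 being lower (49.7% of all genes were) and KEAP1 higher with GLUP (17.5% were). Their GC contents were 40.5% and 60.8%, in quintiles whose median log2 fold changes were -0.64 and 0.44. The part of base composition in these opposite directions was not tested. CUL3, the ubiquitin ligase scaffold that works with KEAP1, stood at 2.91 and 1.98 FPKM in control cells and at 0.998 and 0.698 FPKM with GLUP. BACH1, a repressor of HMOX1, was below the limit of the test, at 0.611 and 0.599 FPKM in control cells and 0.435 and 0.377 FPKM with GLUP.

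The other NRF2 target genes had 14 tested genes, 7 higher and 7 lower, with a median of -0.10. GCLC, the catalytic partner of GCLM, stood at 1.69 and 2.14 FPKM in control cells and at 0.526 and 0.644 FPKM with GLUP (log2 fold change -0.87, adjusted p = 0.101 from limma). SLC7A11, the cystine importer that feeds glutathione synthesis, stood at 2.37 and 2.11 FPKM in control cells and at 0.966 and 0.842 FPKM with GLUP. Both of these lay below both controls in both GLUP libraries, as did GCLM and 49.7% of all genes tested. The log2 fold change of SLC7A11 was -0.77, beside a median of -0.78 in its GC quintile. For GCLC the median of its GC quintile was -0.41. ME1, an NADPH-producing malic enzyme, had the lowest value of the list, with 11.3 and 7.60 FPKM in control cells and 2.29 and 2.40 FPKM with GLUP (log2 fold change -1.62, adjusted p = 0.10 from limma). TKT, of the pentose phosphate pathway, stood at 10.2 and 9.20 FPKM in control cells and 19.3 and 17.1 FPKM with GLUP. SRXN1, which repairs overoxidised peroxiredoxins, was at 5.10 FPKM in Con replicate 1 and listed at 0 in the other 3 libraries.

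Among the thioredoxin and peroxiredoxin genes, 5 of 15 were higher and 10 lower, the share seen over all genes. PRDX3, the mitochondrial peroxiredoxin, stood at 383 and 634 FPKM in control cells and at 131 and 173 FPKM with GLUP (log2 fold change -1.70, adjusted p = 0.10 from limma). GLRX2, a mitochondrial glutaredoxin, had 34.7 and 28.6 FPKM in control cells and 6.80 and 5.78 FPKM with GLUP. GLRX5, another, had 12.4 and 16.3 FPKM in control cells and 5.01 and 3.91 FPKM with GLUP. These 3 were among 6 of the 15 with both GLUP libraries below both controls, against 49.7% of all genes. TXN2, the mitochondrial thioredoxin, overlapped between the groups, with a log2 fold change of 1.01 that was 0.0086 without Con replicate 2. PRDX2 stood at 1460 and 317 FPKM in control cells and at 1066 and 1187 FPKM with GLUP, also overlapping.

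Glutathione genes were lower in 10 of 16 cases, near the share over all genes. GSTP1, a glutathione transferase, stood at 1676 and 360 FPKM in control cells and at 2601 and 2484 FPKM with GLUP, a log2 fold change of 1.71 that was 0.60 without Con replicate 2. GSTM3 stood at 1081 and 935 FPKM in control cells and at 255 and 562 FPKM with GLUP (log2 fold change -1.41, adjusted p = 0.114 from limma). CHAC1, which degrades glutathione, stood at 3.69 and 1.31 FPKM in control cells and at 7.79 and 5.07 FPKM with GLUP (log2 fold change 1.15, and 0.64 without Con replicate 2). CAT, which breaks down hydrogen peroxide, and CCS, the copper chaperone of SOD1, both overlapped between the groups, with log2 fold changes of 0.10 and 0.36 that turned to -0.38 and -0.27 without Con replicate 2.

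Iron genes were split, 7 of 15 being higher. TFRC, the transferrin receptor, stood at 2.48 and 4.04 FPKM in control cells and at 2.47 and 2.49 FPKM with GLUP (log2 fold change -0.27, adjusted p = 0.539 from limma, -0.0031 without Con replicate 2), so only Con replicate 2 was apart. The iron regulatory proteins, which bind iron responsive elements, had means under 1 FPKM. ACO1 was at 1.72 and 0.764 FPKM in control cells and 0.438 and 0.657 FPKM with GLUP, and IREB2 at 0.817 and 0.939 FPKM and at 0.616 and 0.392 FPKM. ISCU, the scaffold of iron-sulfur cluster assembly, stood at 60.6 and 38.3 FPKM in control cells and at 14.1 and 15.9 FPKM with GLUP (log2 fold change -1.62, adjusted p = 0.10 from limma). HMOX2, the constitutive counterpart of HMOX1, stood at 12.4 and 4.86 FPKM in control cells and at 14.4 and 14.0 FPKM with GLUP (log2 fold change 0.78, and 0.18 without Con replicate 2).

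The ferroptosis genes were lower in 6 of 8 cases, with a median 0.02 above that of all genes. SLC3A2, the heavy chain that carries SLC7A11, stood at 93.0 and 20.2 FPKM in control cells and at 185 and 130 FPKM with GLUP (log2 fold change 1.81, adjusted p = 0.154 from limma, 0.73 without Con replicate 2). SLC3A2 and SLC7A11, which form a transporter together, stood on opposite sides of 0. They differ in GC content, 53.8% for SLC3A2 and 35.4% for SLC7A11. The SLC7A11 value of -0.77 lay near the median of its GC quintile, -0.78, and the median in the quintile of SLC3A2 was 0.02. The part of base composition in this contrast was not tested. The listed genes of other selenoproteins and of the synthesis factors on which GPX4 and TXNRD1 depend had 3 higher and 6 lower of 9. Their median was -0.73, over both kinds together. The list does not hold every selenoprotein gene. SELENOO, outside it, had a log2 fold change of 1.08. SELENOM, also outside it, stood at 22.2 and 7.68 FPKM in control cells and at 42.2 and 32.3 FPKM with GLUP. SELENOK stood at 145 and 296 FPKM in control cells and at 54.3 and 79.9 FPKM with GLUP, and SELENOF at 31.3 and 41.4 FPKM and at 15.8 and 14.0 FPKM. SELENOW and SELENOH stood higher instead, with log2 fold changes of 0.93 and 0.73, which were 0.23 and 0.60 without Con replicate 2.

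**Figure D4:**
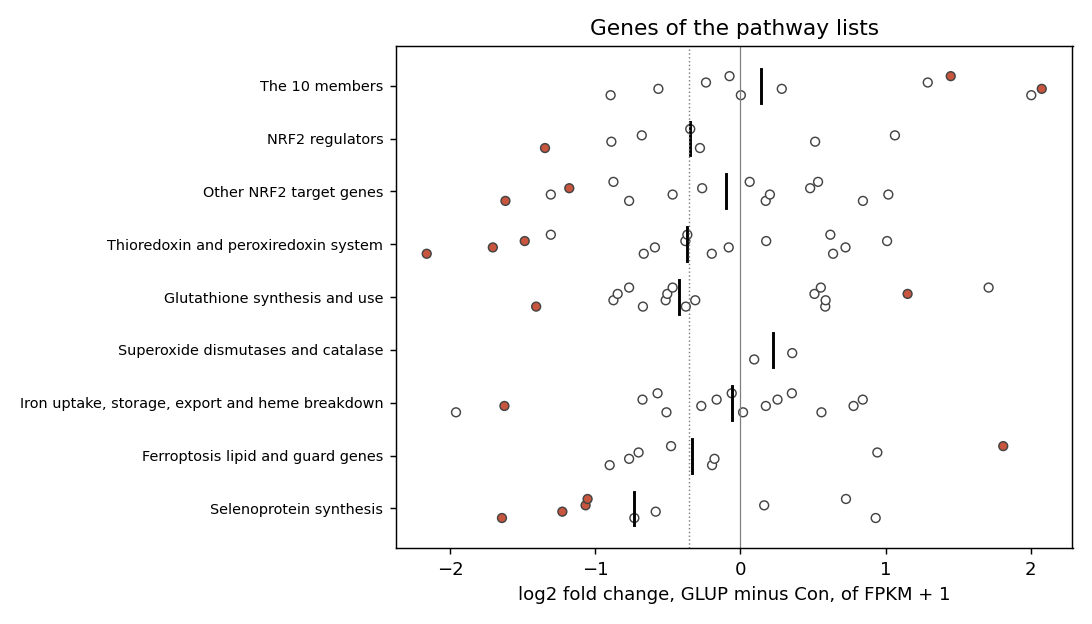
Log2 fold change, GLUP minus Con, of the tested genes of each list, 1 point a gene, with a bar at the median. Red points have an unadjusted p under 0.05 in limma and a fold change over 2, and the dotted line is the median of all genes tested, -0.36. List medians run from -0.73 for the selenoprotein synthesis list to 0.23 for the superoxide dismutase and catalase list. The 2 tested genes of the latter are CAT and CCS, neither of them a dismutase, and both lie below 0 without Con replicate 2.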

How the data were processed

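The authors sequenced RNA of HGC-27 cells, 2 Con and 2 GLUP libraries, and deposited FPKM values, 1 row per gene. The submitters' processing notes name HISAT2, Cufflinks, RSEM and GRCh38.p10, without versions or roles. Row identifiers look like those of a GENCODE release mapped back to GRCh37. Names, positions on GRCh37 and GC content came from GENCODE 44 lifted to that build, and 99.5% of the gene IDs matched. Rows of the same ID (49) were summed.

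Values were tested as log2(FPKM + 1) with limma 3.58.1 in R 4.3.3, with a mean-variance trend, on 7588 genes whose mean reached 1 FPKM, over which p was adjusted by Benjamini-Hochberg, and the code was tested on simulated data. FPKM hold no fragment counts, so no counting error is given. Replicate number was no term in the model. Named list genes were the 3 highest and 3 lowest log2 fold changes of each list at most, plus NFE2L2, KEAP1, BACH1, TFRC, IREB2, ACO1, SLC7A11, GCLC and CAT. BEST1, RPL18AP3, GAPDH, MYL6, TMSB10, SELENOO, SELENOM, the globin genes and FTH1P10 were named after their values were seen. ACTB, EEF1A1, PPIA and TBP complete the listed set of genes that every cell uses, to which GAPDH belongs. Members and lists were chosen with earlier results of these data known. Alternatives were another pseudocount, other filters, median centring, quantile normalization, replicate block, GC correction (lowess, span 0.3), no trend, a fold change of 1.5, pseudogenes added and each library left out. The gene nearest to PRDX1 is not reported here.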

Additional observations from a re-analysis of the deposited data

How the results depend on the processing

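The libraries, and Con replicate 2 above all, limit these results, and depth is unknown. No gene of the 10 was called in any setting that kept all 4 libraries, with limma. With 1 library left out in turn, calls among the 10 ranged from 0 to 5 and calls among all genes from 4 to 2710 (without Con replicate 1; 1020 without Con replicate 2). The 2 calls over all genes became 1 with a pseudocount of 0.1, centring on medians or quantile normalization. They became 0 with all genes above 0, a mean of at least 5 FPKM, the GC trend removed or no mean-variance trend (1293, 890, 700 and 1461 genes before adjustment, over 2-fold). With the GC trend removed and the replicate block together they became 16, and with the replicate block alone they stayed at 2. The 2 genes of the 10 past p and fold before adjustment became 1 with all genes above 0 and 4 with centring on medians, with the replicate block and with both the GC trend removed and the replicate block, and ran from 1 to 5 with a library left out. The median of the 10 relative to all genes was 0.16 with all genes above 0, and 0.35 to 0.70 with a library left out. With a mean of at least 5 FPKM, GCLM fell out, and the median of the other 9 was 0.71.

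Directions turned for HMOX1, TXN, GCLM, PRDX1 and SOD1. HMOX1 was at -0.42 with the GC trend removed, with or without the replicate block, and ran from -0.14 to 0.15 with a library left out. TXN was at 0.11 centred on medians, 0.58 with the GC trend removed, with or without the replicate block, and -0.56 to 0.083 (without Con replicate 2) with a library left out. GCLM was at 0.23 with the GC trend removed, with or without the replicate block. PRDX1 ran from -0.069 (without Con replicate 2) to 0.64 with a library left out. SOD1 was at 0.27 centred on medians and 0.013 under quantile normalization. NQO1, TXNRD1, GPX4, FTH1 and FTL kept their direction in all 14 alternatives run. The cause of these shifts was not tested. Nothing in the labels ties equal replicate numbers together. Across genes, deviations from the group mean correlated at 0.126 between same-numbered libraries. With 2 libraries in each group, each same-numbered pair must give this same value, so it cannot decide whether libraries were paired. The replicate block changed no call of the 10 at the adjusted threshold. Pseudogenes moved both ratios by less than the spread between replicates.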

Other observations

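Globin genes, whose products carry heme and are markers of red blood cells, were measured in these gastric cancer cells. HBA1 stood at 6.69 and 3.04 FPKM in control cells and at 10.7 and 17.5 FPKM with GLUP, and HBA2 at 5.65 and 3.90 FPKM and at 16.0 and 15.3 FPKM. HBB was listed at 0 in every library, and ALAS2 reached 0.0772 FPKM in GLUP replicate 2 alone. HBA1 and HBA2 are near-identical, so reads can be split between them. FTH1P10, a processed copy of FTH1, stood at 33.1 and 11.2 FPKM in control cells and at 50.7 and 135 FPKM with GLUP, so that GLUP replicate 2 held more of it than GLUP replicate 1, although FTH1 itself was lower there.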
